A study of Rattus norvegicus with 6 samples.

Results

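The polyamine synthesis and antizyme genes comprised 8 rat genes, taken by symbol from the 33022 loci of the series. These were Odc1, Amd1, Srm and Sms of the synthesis pathway, the antizyme genes Oaz1 and Oaz2, the antizyme inhibitor gene Azin1 and the acetyltransferase gene Sat1. Each symbol occurred on 1 locus. Of the 8 genes, 7 were among the 10201 loci with a symbol whose level averaged 1 FPKM or more over the libraries. FPKM are fragments normalized to transcript length and to library size. Srm was listed at 0 in every library.

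Livers came from male obesity-prone Sprague Dawley rats with an initial weight of 160 to 190 g, fed a control diet (CD) or a Western diet (WD), which is rich in fat and sucrose, for 2 weeks, then fasted overnight and refed in the morning. RNA was taken from total liver homogenate and from both fractions, light and heavy, of sucrose gradients, which hold mRNAs bound to 3 or fewer ribosomes and to 4 or more, respectively. The 3 rats of a diet were pooled at the RNA stage, which left 1 library for each kind of RNA and diet and 6 in all. No value has a replicate and no comparison of the diets could be tested. The 3 libraries of a diet came from the same rats, and the rats of a pool cannot be told apart.

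Polyamines (putrescine, spermidine and spermine) are small positively charged molecules that bind RNA and DNA and are needed for growth and protein synthesis. Ornithine decarboxylase (Odc1) makes putrescine from ornithine, S-adenosylmethionine decarboxylase (Amd1) makes the donor of aminopropyl groups, and spermidine synthase (Srm) and spermine synthase (Sms) use that donor to make spermidine and spermine. Antizymes (Oaz1, Oaz2) bind ornithine decarboxylase and deliver it to the proteasome, antizyme inhibitor 1 (Azin1) binds antizymes in its place, and spermidine/spermine acetyltransferase (Sat1) starts polyamine breakdown and export. The pathway is known for feedback at the ribosome. Polyamines promote the frameshift that is needed to make an antizyme, and short upstream reading frames in the Amd1 and Azin1 mRNAs make their translation sensitive to polyamines.

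Core promoter sequences are shown because the first bases of an mRNA define the terminal oligopyrimidine class, and because TATA-type promoters are uncommon. RefSeq promoters of assembly GRCr8 (250 bases before to 50 bases after the start) matched 7 of the 8 genes, and Azin1 had no match. A start of C followed by 4 pyrimidines, as in the oligopyrimidine mRNAs that encode ribosomal proteins, was found at the first base of 0 of the 7, against 2.63% of 33469 promoters. The letters TATAA, searched on the sense strand between 45 and 16 bases before the start, were found in 3 of the 7 (Odc1, Oaz1 and Amd1), against 3.02% of all promoters. The palindrome CACGTG, which reads the same on both strands and does not overlap TATAA here, was found within 250 bases before the start in 2 of the 7 (Srm and Oaz1), against 5.59%. These matches describe letters in a window and are not evidence of binding. The windows, 30 bases each from 5′ to 3′ with the motif in capitals, were as follows. Odc1 lay at chr6:46058621-46058650 on the plus strand, with the first base of the motif 32 bases before the start. Oaz1 lay on the minus strand at chr7:9537001-9537030 for TATAA (28 bases before the start) and at chr7:9537207-9537236 for CACGTG (234 bases). Amd1 lay at chr20:45265994-45266023 on the minus strand (29 bases), and Srm at chr5:164308817-164308846 on the plus strand (173 bases).
Odc1 TATAA: acgtgctccgccTATAAgtagcggcgcgtc
Oaz1 TATAA: agtgacgacgcaTATAAaagtgggcgtcgg
Amd1 TATAA: ggaggatgcttaTATAAagtctgcgctcac
Oaz1 CACGTG: gagtgacgcaaaCACGTGggggcgggactc
Srm CACGTG: gcccctcggcccCACGTGgcccggcagccg

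The depth behind each value was read from the values themselves. FPKM values of 6816 of the 10201 loci (66.8%) could be written as whole fragment numbers times a step of that locus and a factor of that library, and 6 members were among them (not Odc1 or Srm). Over all 7985 loci with inferred fragments, compared or not, these summed to between 341341 in the CD light and 713741 in the WD light library. The median locus compared that had fragment numbers held between 10 and 25 fragments. A 95% interval given with a ratio is an exact interval from those fragments (Clopper-Pearson for 2 libraries, the conditional odds ratio for ribosome density). It compares libraries, not diets, and describes counting error alone, since amplified reads carried no molecular identifiers and need not stem from separate molecules. Hepatocyte markers summed to between 37998 and 127046 FPKM, whereas the 3 adipocyte markers (Adipoq, Plin1 and Lep) were listed at 0 in every library. Markers of Kupffer cells summed to between 48.3 and 115 FPKM, of endothelial cells to between 32.7 and 46.5, of stellate cells to between 27.0 and 56.6, and of bile duct cells to at most 4.35, with Krt7 at 0. The 4 blood cell markers found summed to 452 FPKM in the WD light library and to between 18.1 and 57.8 FPKM in the other 5. In these bulk samples, fewer cells of a type and less RNA per cell cannot be told apart.

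Odc1 (chromosome 6, 42852682 to 42859927, Rnor_6.0, as for the loci that follow) was measured at 38.5 FPKM in CD and 27.1 FPKM in WD total RNA. In the light fraction its level was 66.9 FPKM in CD and 60.6 FPKM in WD. The heavy fraction held 35.3 FPKM in CD and 40.5 FPKM in WD. The mRNA of the first enzyme of the pathway had its lowest value in the total RNA of WD and its highest in the CD light fraction, and it was the only member with a higher value in WD than in CD in the heavy fraction. The Cufflinks bounds of Odc1 in the heavy fraction overlapped widely, at 8.66 to 61.9 FPKM in CD and 8.30 to 72.6 FPKM in WD. No fragment numbers could be inferred for Odc1, so its WD to CD ratio of 0.704 in total RNA has no counting interval. RefSeq names 10 pseudogenes after Odc1, 3 after Amd1, 2 after Oaz1 and 2 after Sms, and reads shared with such copies could be assigned to either locus.

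Amd1 (chromosome 20, 45383999 to 45399694) was measured at 10.0 FPKM (34 fragments) in CD and 10.8 FPKM (35 fragments) in WD total RNA. In the light fraction it was measured at 14.2 FPKM (33 fragments) in CD and 16.4 FPKM (83 fragments) in WD. In the heavy fraction it was measured at 9.25 FPKM (20 fragments) in CD and 2.26 FPKM (5 fragments) in WD. The WD heavy library held the lowest value of the 6, and the other 5 lay within 9.25 to 16.4 FPKM. The WD to CD ratio of the heavy fraction was 0.244 (0.0716 to 0.670), which lies below 1, whereas the ratios in total RNA (1.08, 0.652 to 1.78) and in the light fraction (1.16, 0.764 to 1.79) had intervals that include 1. The bounds that Cufflinks gives for the heavy fraction overlapped between the diets, at 1.87 to 16.6 FPKM in CD and 0 to 4.94 FPKM in WD.

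Sms (chromosome X, 40363645 to 40415109) was the lowest member detected and rested on 22 fragments in all. It was measured at 0.617 FPKM (1 fragment) in CD and 1.93 FPKM (3 fragments) in WD total RNA. The light fraction gave 1.80 FPKM (2 fragments) in CD and 4.98 FPKM (12 fragments) in WD. The heavy fraction gave 3.88 FPKM (4 fragments) in CD and no fragment in WD, which allows a level of up to 2.84 FPKM (3 fragments). The total RNA ratio of 3.14 had an interval of 0.252 to 165, so the depth could not show a difference in either direction. Srm (chromosome 5, 165405167 to 165408320), which encodes the enzyme that makes spermidine, was listed at 0 in all 6 libraries, as were 18114 of the 32158 loci with a symbol (56.3%). Such a 0 can be a failed estimate or come from the annotation, which these values cannot settle, so it is not read as absence of Srm mRNA and no fold is given.

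The antizyme mRNAs lay above the Sms mRNA in every library, beyond counting error. Oaz1 (chromosome 7, 11752411 to 11754508), the most widely expressed antizyme, was measured at 39.8 FPKM (22 fragments) in CD and 43.5 FPKM (23 fragments) in WD total RNA. Its light fraction values were 74.1 FPKM (28 fragments) in CD and 79.1 FPKM (65 fragments) in WD. Its heavy fraction values were 54.0 FPKM (19 fragments) in CD and 27.7 FPKM (10 fragments) in WD. Like Amd1, Oaz1 was lowest in the WD heavy library, but the heavy fraction ratio of 0.514 had an interval of 0.213 to 1.16 that includes 1. Oaz2 (chromosome 8, 71216177 to 71228713), a second antizyme of the same function, was measured at 69.2 FPKM (29 fragments) in CD and 42.4 FPKM (17 fragments) in WD total RNA. In the light fraction Oaz2 was measured at 62.8 FPKM (18 fragments) in CD and 65.8 FPKM (41 fragments) in WD. In the heavy fraction it was measured at 78.7 FPKM (21 fragments) in CD and 43.9 FPKM (12 fragments) in WD. Both the total RNA ratio (0.613, 0.316 to 1.15) and the heavy fraction ratio (0.558, 0.250 to 1.19) of Oaz2 were below 0.75 with intervals that include 1.

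Azin1 (chromosome 7, 77345645 to 77372398) had the narrowest range of the members, from 10.1 to 13.8 FPKM. It was measured at 10.1 FPKM (46 fragments) in CD and 12.2 FPKM (53 fragments) in WD total RNA, at 13.8 FPKM (43 fragments) in CD and 13.7 FPKM (93 fragments) in WD light fraction, and at 11.0 FPKM (32 fragments) in CD and 10.1 FPKM (30 fragments) in WD heavy fraction. Its WD to CD ratios were 1.20 in total RNA (0.796 to 1.83), 0.995 in the light fraction (0.686 to 1.46) and 0.915 in the heavy fraction (0.537 to 1.56). No diet ratio of Azin1 passed a limit, although each of the 3 intervals reached past a limit of 1.5 or 0.75.

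Sat1 (chromosome X, 43625168 to 43629765) encodes the enzyme that starts polyamine breakdown and rested on 530 fragments, the most of the members. It was measured at 48.1 FPKM (53 fragments) in CD and 78.8 FPKM (83 fragments) in WD total RNA. Its light fraction values were the highest of any member, at 120 FPKM (90 fragments) in CD and 140 FPKM (229 fragments) in WD. Its heavy fraction values were 54.2 FPKM (38 fragments) in CD and 51.5 FPKM (37 fragments) in WD. Sat1 was the member whose total RNA ratio had an interval above 1 (1.64, 1.15 to 2.36), whereas the ratios of the light fraction (1.17, 0.913 to 1.51) and of the heavy fraction (0.951, 0.588 to 1.54) had intervals that include 1.

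**Figure D1:**
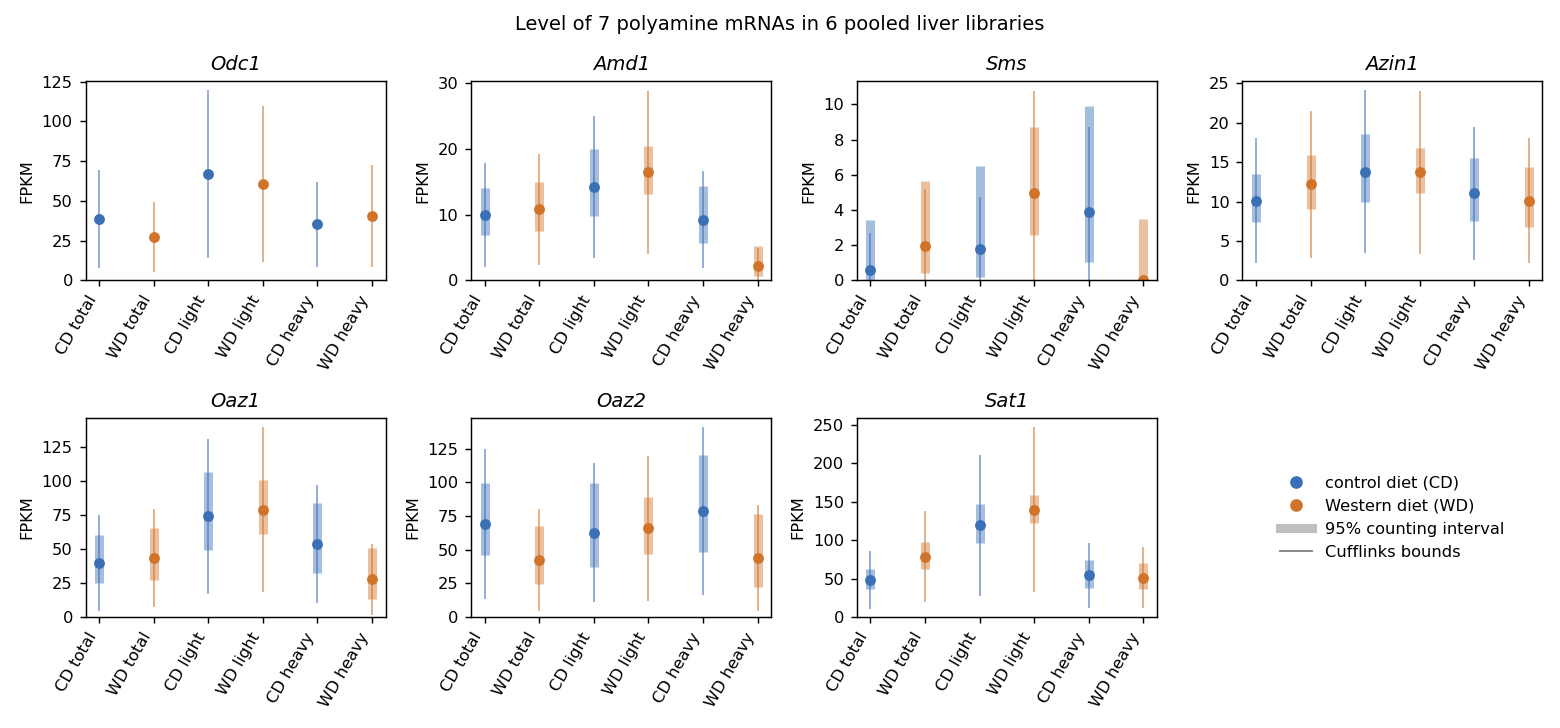
Level (FPKM, linear axes of their own for each gene) of the 7 members detected, in the 3 CD libraries (blue) and the 3 WD libraries (orange). Points are single pooled libraries, thick bars 95% counting intervals and thin lines Cufflinks bounds, and Amd1 is lowest in the WD heavy library (2.26 FPKM) whereas Sat1 is highest in both light libraries (120 and 140 FPKM).

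FPKM is per length, so levels can be set side by side between genes as far as the transcript lengths used are right. The order depends on those lengths. In the CD heavy library 1 fragment was worth 3.75 FPKM for Oaz2 and 0.345 FPKM for Azin1. In every library, Sat1, Oaz2, Oaz1 and Odc1 were the upper 4 members, Azin1 and Amd1 came next and Sms was last. Oaz2 was first in CD total RNA and the CD heavy fraction, and Sat1 was first in the other 4 libraries. Within these sets, most neighbours in the order that both had fragment numbers did not differ beyond their counting intervals. Pairs with Odc1 could not be compared in this way. Neighbours with separate counting intervals were Amd1 above Sms in both total RNA libraries, Oaz2 above Amd1 and Azin1 above Sms in the CD light fraction, Sat1 above Oaz1 and Azin1 above Sms in the WD light fraction, and Azin1 above Amd1 in the WD heavy fraction. The Cufflinks bounds of all neighbours overlapped.

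The effect of the diet on mRNA abundance was read from total RNA. Changes are given as log2 of WD over CD after adding 0.1 FPKM, and a member is counted as higher at a ratio of at least 1.5 and lower at a ratio of at most 0.75, the limits that the study used for ribosome density. Of the 7 members, 2 were higher (Sms and Sat1), against 17.7% of all loci compared, and 2 were lower (Odc1 and Oaz2), against 22.7% of loci. The log2 change was 0.71 for Sat1, 1.51 for Sms, -0.50 for Odc1 and -0.70 for Oaz2, and between 0.11 and 0.27 for Amd1, Oaz1 and Azin1. With libraries rescaled to equal sums, the change of Odc1 was -0.41 and no longer passed the limit, while the median of all loci moved to 0.12. The median of the members was 0.13, beside 0.022 for all loci. An interval above 1 was found for 1 of the 6 members with fragments (Sat1), against 4.83% of loci, and an interval below 1 for none, against 4.79%. The Cufflinks bounds of each member overlapped between the diets.

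In the light fraction, 1 of the 7 members was higher (Sms, log2 change 1.42), against 25.9% of loci, and 0 were lower, against 26.8%. The others lay between -0.14 (Odc1) and 0.23 (Sat1), and the members' median was 0.094 beside 0.017 for all loci. When the libraries were rescaled to equal sums, the median of all loci in the light fraction moved to -0.29, and Amd1, Oaz1, Oaz2 and Sat1 changed from above 0 to below 0 while staying above that median. No interval excluded 1 among the 6 members, against 9.08% of loci above and 10.6% below. The WD light library also held the highest blood cell markers (452 FPKM) and the greatest depth, and their part in these values was not tested.

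In the heavy fraction, 0 of the 7 members were higher, against 21.7% of loci, and 4 were lower (Amd1, Sms, Oaz1 and Oaz2), against 25.8% of loci. The log2 change was -1.99 for Amd1, -0.96 for Oaz1 and -0.84 for Oaz2. Sms had 4 fragments in CD and 0 in WD, and the interval of its ratio (0 to 1.48) includes 1. Odc1 (0.20), Sat1 (-0.073) and Azin1 (-0.13) lay between the limits. The median of the members was -0.84, or -0.44 with Sms set at 3 fragments in the WD heavy library, beside -0.015 for all loci. An interval below 1 was found for 1 of 6 members (Amd1), against 5.25% of loci, and above 1 for 0, against 4.41%. A change as low as that of Amd1 or lower was found at 5.05% of the loci compared.

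**Figure D2:**
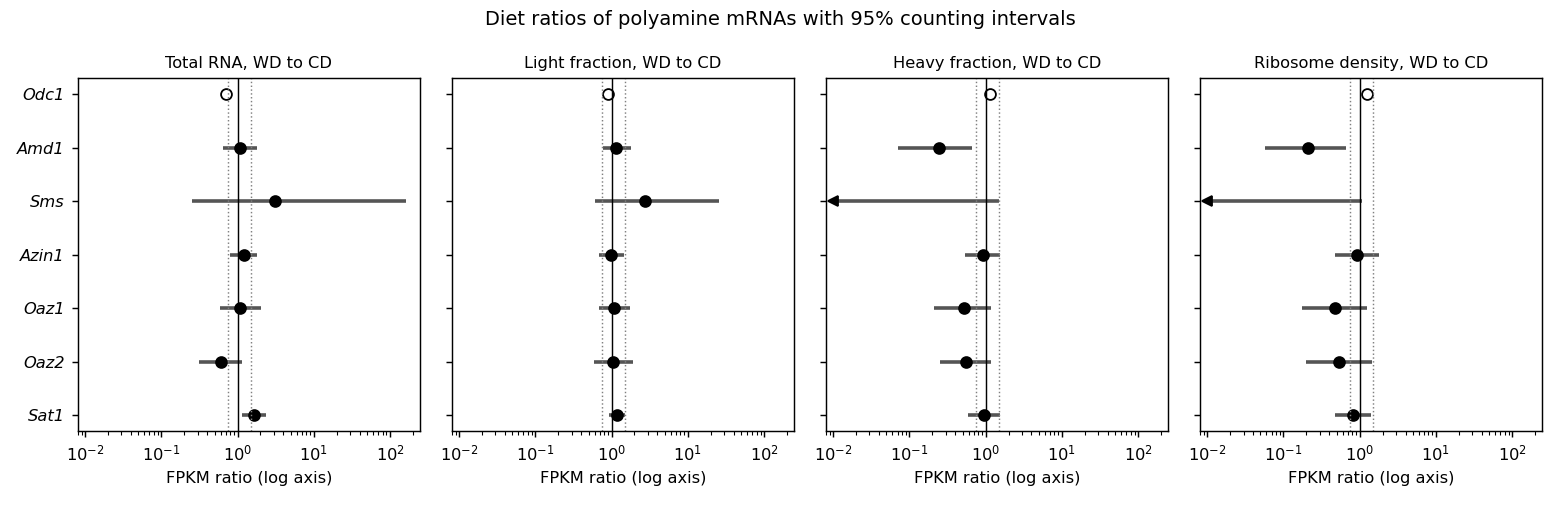
FPKM ratio of WD to CD (log axis) for the members in total RNA, the light fraction, the heavy fraction and their ribosome density, with 95% counting intervals as bars, open circles for Odc1 without an interval, arrows for Sms with no fragment in the WD heavy fraction, and dotted lines at 0.75 and 1.5. The Sat1 interval lies above 1 in total RNA (1.15 to 2.36) and the Amd1 intervals lie below 1 in the heavy fraction (0.0716 to 0.670) and for ribosome density (0.0581 to 0.653).

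Ribosome density was taken as heavy over light fraction within a diet. FPKM values are relative to library size, so this ratio ranks mRNAs and does not give the share of molecules on heavy polysomes. In CD, 1 of the 7 members was at or above 1.5 (Sms), against 32.9% of loci, and 4 were at or below 0.75 (Odc1, Amd1, Oaz1 and Sat1), against 36.6% of loci. The log2 ratio of heavy to light in CD was -1.14 for Sat1, -0.92 for Odc1, -0.61 for Amd1, -0.46 for Oaz1, -0.32 for Azin1, 0.32 for Oaz2 and 1.06 for Sms. Sat1 was the member with an interval below 1 in CD (ratio 0.453, 0.302 to 0.670), which 14.2% of loci had, and no member had an interval above 1, which 17.1% had.

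In WD, all 7 members had a heavy to light ratio at or below 0.75, against 38.5% of loci, and 0 were at or above 1.5, against 31.4% of loci. The log2 ratio was -2.81 for Amd1, -1.51 for Oaz1, -1.44 for Sat1, -0.58 for Odc1, -0.58 for Oaz2 and -0.44 for Azin1. Sms had 12 fragments in the light and 0 in the heavy fraction. The median of the members was -1.44, or -0.79 with Sms set at 3 fragments in the heavy fraction, beside 0 for all loci. Intervals below 1 were found for 4 of 6 members, against 18.0% of loci, namely Amd1 (0.137, 0.0435 to 0.334), Oaz1 (0.351, 0.161 to 0.687), Sat1 (0.368, 0.253 to 0.523) and Sms (0 to 0.821), and above 1 for 0, against 20.9%. These intervals are at the deposited scaling and were not recomputed for rescaled libraries, and that of Sms reached closest to 1. With libraries rescaled to equal sums, the median of all loci moved to 0.26, all 7 members stayed below 0, and 4 stayed at or below 0.75 (Amd1, Sms, Oaz1 and Sat1). Azin1 also lay above 0.75 with a pseudocount of 1 FPKM (log2 -0.41), which left 6. The light library of this ratio is the one with the high blood cell markers (452 FPKM, against 26.6 FPKM in the WD heavy library), and their part in it was not tested.

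**Figure D3:**
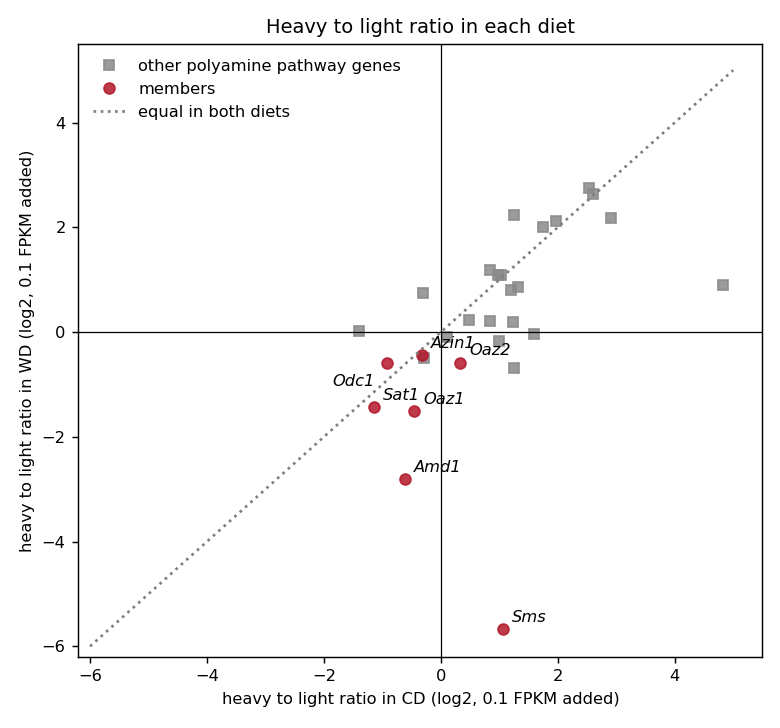
Log2 heavy to light ratio in CD (horizontal axis) and WD (vertical axis), with 0.1 FPKM added, for the 7 members (red circles) and 22 other polyamine pathway genes (gray squares), where the dotted line marks equal ratios in both diets. The members lie below 0 in WD, from -0.44 for Azin1 to -2.81 for Amd1 and further for Sms, which had no fragment in the WD heavy fraction, and most other genes lie above 0 in CD.

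The change of ribosome density, WD over CD, asks whether the diet moved an mRNA between light and heavy fractions. Of the 7 members, 0 were higher, against 27.7% of loci, and 4 were lower (Amd1, Sms, Oaz1 and Oaz2), against 36.1% of loci. The log2 change was -2.20 for Amd1, -1.05 for Oaz1, -0.91 for Oaz2 and 0.34 for Odc1. Sms had no fragment in the WD heavy fraction, and its interval (0 to 1.08) includes 1. Azin1 (-0.12) and Sat1 (-0.30) lay between the limits. They turned positive, to 0.21 and 0.029, when libraries were rescaled to equal sums, under which the median of all loci moved to 0.28. With this rescaling Odc1 moved to 0.67 and counted as higher. The members' median of -0.91, which did not move with Sms set at 3 fragments in the WD heavy fraction, stood beside -0.021 for all loci.

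Amd1 was the member whose interval of the density change lay below 1 (ratio 0.211, 0.0581 to 0.653), which 5.45% of loci had. A density change as low or lower was found at 10.6% of the loci compared. The intervals of Oaz1 (0.481, 0.178 to 1.26) and Oaz2 (0.533, 0.196 to 1.43) include 1. No member had an interval above 1, against 6.86% of loci. With total RNA as the reference, the density change was -2.09 for Amd1 and -1.09 for Oaz1, -0.78 for Sat1, -0.14 for Oaz2 and 0.70 for Odc1. Both references are set against the same heavy fraction values, so the low density change of Amd1 against each is not an independent observation. The density change of Oaz2 was smaller against total RNA, in which Oaz2 was also lower in WD.

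A ratio between members within a library does not depend on how libraries were scaled. The ratio of Odc1 to Oaz1, the enzyme over its antizyme, was 0.967 in CD and 0.623 in WD for total RNA. In the light fraction it was 0.904 in CD and 0.767 in WD, and in the heavy fraction 0.654 in CD and 1.46 in WD. The value was thus lower in WD than in CD in total RNA and the light fraction and higher in the heavy fraction. No interval was computed for these ratios, and Odc1 has no fragment numbers. Oaz1 rested on 19 fragments in CD heavy (32.5 to 84.3 FPKM) and 10 in WD heavy (13.3 to 51.0 FPKM). These counting intervals overlap, so the depth does not settle the direction. The ratio of Azin1 to Oaz1 was 0.254 and 0.280 in CD and WD total RNA, 0.186 and 0.174 in the light and 0.204 and 0.364 in the heavy fractions, so that the WD heavy library was the highest of the 6 for both ratios.

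The ratio of Oaz1 to Oaz2 in total RNA was 0.575 in CD and 1.03 in WD. It was 1.18 and 1.20 in the light and 0.686 and 0.632 in the heavy fractions. In this pair the light libraries were above the heavy libraries in both diets. The ratio of Amd1 to Odc1, which both encode decarboxylases of the pathway, was 0.260 and 0.398 in CD and WD total RNA, 0.212 and 0.271 in the light fractions, 0.262 in CD heavy and 0.0558 in WD heavy. The WD heavy library was the lowest of the 6 for this pair, on 5 fragments of Amd1.

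**Figure D4:**
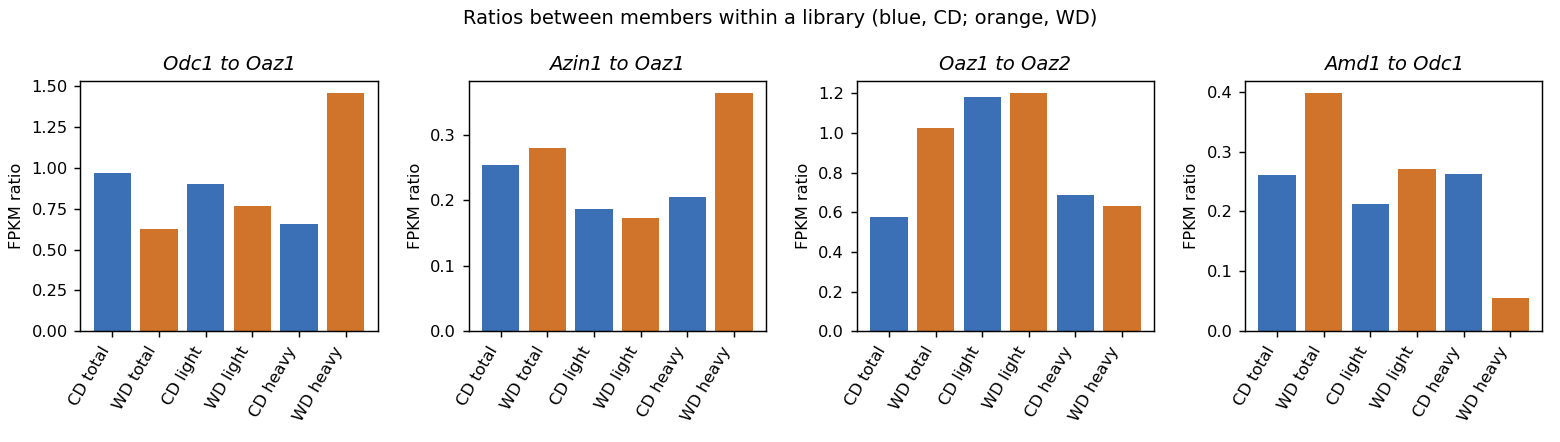
FPKM ratio (linear axes from 0) between pairs of members within each library, with CD in blue and WD in orange and 1 bar per pooled library, so that no error between rats can be drawn. In the WD heavy library the ratios of Odc1 to Oaz1 (1.46) and Azin1 to Oaz1 (0.364) are the highest of the 6 and that of Amd1 to Odc1 (0.0558) is the lowest. No counting interval was computed for these ratios.

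The surrounding pathway was described by 30 further genes, of which 29 were found and 22 averaged 1 FPKM or more. Heavy to light ratios of these genes lay mostly above 1. In CD, 17 of 22 were at or above 1.5, against 32.9% of loci, and 1 at or below 0.75, against 36.6% (median log2 1.22). In WD the numbers were 13, against 31.4% of loci, and 2, against 38.5% (median 0.83), beside medians of 0.012 and 0 for all loci. Examples of high ratios are Otc and Oat of ornithine metabolism and Dohh of the hypusine pathway. In the list of ornithine and arginine genes, Arg1 was lower, at 1.78 in CD and 1.17 in WD. Gatm was at 1.07 and 0.939. Otc, the urea cycle enzyme that consumes ornithine, had a ratio of 6.04 in CD (5.06 to 7.25) and 6.20 in WD (5.39 to 7.15). Oat, which transaminates ornithine, had 5.83 (4.00 to 8.72) and 6.76 (5.24 to 8.79). Dohh, which completes the hypusine residue that spermidine donates to a translation factor, had 3.36 (1.88 to 6.31) and 4.02 (2.60 to 6.32).

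At the deposited scaling, some of these genes differed between the libraries of the diets beyond counting error. Rescaling the libraries to equal sums moved the median of all loci to -0.29 in the light fraction and to 0.28 for density. Intervals were not recomputed with it, so whether those of Arg1 would still exclude 1 was not tested. Density was higher for 3 and lower for 8 of the 22, against 27.7% and 36.1% of loci, so that the count of lower genes was near the background, with a median of -0.19. The interval lay below 1 for 1 of 14, Arg1, the arginase that releases ornithine (0.653, 0.526 to 0.811), against 5.45% of loci, and above 1 for 0, against 6.86%. Arg1 was measured at 221 FPKM in CD and 307 FPKM in WD light fraction and at 394 FPKM in CD and 358 FPKM in WD heavy fraction. In the light fraction, 2 of the 14 intervals lay above 1, against 9.08% of loci, and 0 below, against 10.6%. The 2 were those of Arg1 (1.39, 1.19 to 1.62) and Adi1. In total RNA, 2 were higher and 6 lower (median 0.029), against 17.7% and 22.7% of loci, and the lower count was near that background. The interval lay above 1 for Slc3a2 (1.40, 1.12 to 1.75), a subunit of amino acid transporters that has been linked to polyamine export, and for no other of the 14, against 4.83% of loci. Slc3a2 was also higher in the heavy fraction (1.62, 1.24 to 2.12), where 3 of the 14 intervals lay above 1 (Slc3a2, Oat and Enoph1), against 4.41% of loci, and 1 below (Otc), against 5.25%.

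Of the other genes listed here with polyamine breakdown, Sat2, included as a relative of Sat1, was measured at 10.5 FPKM in CD and 10.9 FPKM in WD total RNA. Smox, which oxidizes spermine, lay between 0.622 and 1.49 FPKM in the 6 libraries, and Paox, which oxidizes acetylated polyamines, between 0.655 and 2.95 FPKM. In CD the heavy to light ratio was 1.97 for Sat2, 2.15 for Smox and 3.22 for Paox (0.259 to 169, on 3 and 1 fragments), and in WD it was 2.14, 0.876 and 0.977, beside 0.453 and 0.368 for Sat1. Among the 8 genes of S-adenosylmethionine and methylthioadenosine metabolism, whose products feed or follow the Amd1 step, 5 were at or above 1.5 in heavy to light ratio in CD, against 32.9% of loci, and 5 in WD, against 31.4%. Mat1a, the liver form of S-adenosylmethionine synthetase, was measured at 220 FPKM in CD and 231 FPKM in WD total RNA. Adi1, of the methionine salvage pathway, was higher in the WD light fraction (1.55, 1.19 to 2.04) and had a heavy to light ratio in WD of 0.712 (0.546 to 0.920). Both rest on the WD light library, whose FPKM sum was 867734, against 679535 in CD light and 700724 in WD heavy. Neither interval was recomputed with libraries rescaled to equal sums. Enoph1, of the same pathway, was higher in the WD heavy fraction (4.56, 1.27 to 24.7) on 3 fragments in CD and 14 in WD. The other antizyme family genes were near or at 0, with Oaz3 listed at 0 in every library and Azin2 at a mean of 0.320 FPKM.

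The loci whose profile over the 6 libraries was nearest to each member were taken from the 3548 loci that averaged at least 10 FPKM and met the naming rule, by the Euclidean distance of centered log2 values. This is a description over 6 libraries that share pools and depth. Azin1 had the closest neighbours, Gjb2 (distance 0.14) and Abce1 (0.19). Odc1 was nearest to Ppp1cc (0.29) and Blcap (0.37), Oaz2 to Me1 (0.30) and Ribc1 (0.37), and Sat1 to Cnot6l (0.30) and Gde1 (0.34). Oaz1 was nearest to Kctd5 (0.37) and Hook1 (0.41). Amd1 was nearest to Eif4ebp1 (0.40), which encodes a repressor of cap-dependent translation, and Snx13 (0.45). Eif4ebp1 was measured at 12.8 FPKM in CD and 4.17 FPKM in WD heavy fraction and at 23.8 FPKM and 27.4 FPKM in the light fractions. Sms had no close neighbour, the nearest being Smim8 (2.25) and Sub1 (2.36).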

How the data were processed

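Total RNA and light and heavy gradient fractions from livers of CD and WD rats were measured in 6 libraries, each pooled from 3 rats. The authors depleted ribosomal RNA, used TopHat for alignment to Rnor_6.0, and made the deposited FPKM values and their bounds with the Cufflinks 2.2.1 pipeline (Cufflinks, Cuffmerge and Cuffnorm); the annotation is not given in the sources used here. The methods describe a separate route for ribosome-protected reads, and which route the fraction libraries took is not certain.

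Here, the members and lists were chosen with earlier results of these data known. Log2 changes are of deposited FPKM values plus 0.1 FPKM, and ratios printed with intervals are of FPKM without it. The loci compared were those with a symbol and an estimate marked as successful that averaged 1 FPKM or more. The study's limits of 1.5 and 0.75, stated for CD against WD, were applied to WD over CD. Fragment numbers were inferred where whole numbers (tolerance 0.01) explained at least 3 nonzero libraries, no more than 0.01 accidental solutions were anticipated, and Cufflinks relative bounds lay within 10% of the median bound of that number. They remain estimates, since their multiples fit the FPKM values equally well. Of 11578 loci above 0 in at least 3 libraries, 7985 (69.0%) had them. The method was tested on simulated data. With 1 library per group no p-value was computed.

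Named genes were the 8 members, genes of the fixed lists with a mean of at least 1 FPKM (Oaz3 and Azin2 were named below it), and for each member the 2 loci nearest in profile. Promoter sequences and pseudogene names came from RefSeq (GRCr8). Alternatives were other pseudocounts and filters, rescaled or centred libraries, summed loci of a symbol and the heavy fraction over total RNA. Python 3.11.15, numpy 2.4.6, pandas 2.3.3, scipy 1.17.1 and matplotlib 3.10.9 were used.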

Additional observations from a re-analysis of the deposited data

Results flagged for a closer look

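Some members moved in opposite directions in the light and the heavy fraction, or had heavy to light ratios on opposite sides of 1 in the diets. With 1 library per group, each of these differences was not tested, and each is given as the log2 change of ribosome density. The light to heavy contrast of the diet change was -2.20 for Amd1 (0.21 in the light and -1.99 in the heavy fraction). It was -1.05 for Oaz1 (0.094 and -0.96) and -0.91 for Oaz2 (0.067 and -0.84). It was -0.30 for Sat1 (0.23 and -0.073) and 0.34 for Odc1 (-0.14 and 0.20). For Sms the value of -6.73 (1.42 and -5.31) depends on the 0.1 FPKM added to a library without a fragment. The heavy to light ratio changed side between the diets for Oaz2 (log2 0.32 in CD and -0.58 in WD, a difference of -0.91) and for Sms (1.06 and -5.67, a difference of -6.73). Of these, the counting interval of Amd1 lay below 1 and those of Sms, Oaz1, Oaz2 and Sat1 include 1.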

How the results depend on the processing

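No paired analysis was possible because each combination of diet and RNA was 1 pooled library. The number of members past a limit in the light fraction was 1 as reported, 0 with a mean of at least 10 FPKM (which leaves out Sms), 2 with each library rescaled to the same sum (Sms higher and Odc1 lower), and 0 without Sms, an alternative chosen after seeing the data. The number for the WD heavy to light ratio was 7 as reported and 4 with rescaling. Rescaling also moved Odc1 to -0.49 in the light fraction, to -0.27 for the WD heavy to light ratio and to 0.67 for ribosome density. The density change of Odc1 was 0.70 when total RNA replaced the light fraction. By both of these density values Odc1 counted as higher. The other 45 counts of members past a limit stayed within 1.5 times the reported count, among them 6 for the WD heavy to light ratio with a pseudocount of 1 FPKM. Single values moved more. The members' light fraction median turned from 0.094 to -0.26 with rescaling, the density change of Oaz2 was -0.14 against total RNA and no longer passed the limit, that of Sat1 was -0.78 and passed it, and the heavy fraction change of Sms ran from -2.29 to -8.60 with the pseudocount. Without Sms, or with no filter, which adds Srm at 0, the members' median was -0.48 in the heavy fraction, -1.01 for the WD heavy to light ratio and -0.60 for ribosome density. The cause of these changes was not tested beyond what each alternative leaves out. Depth limits Sms most, with 22 fragments in all, and Amd1 in the WD heavy fraction, with 5.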
